A study of Saccharomyces cerevisiae with 12 samples.

Results

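Levels of 43 cell wall genes were compared in budding yeast (Saccharomyces cerevisiae) on 12 single-colour arrays, 3 for each of 4 strains. The genes are a listed set, matched by gene name or, for GAS2 and TOS6, by locus, and each had 1 probe among the 6252 gene probes of the array. They comprise 18 genes of glucan synthesis and remodelling, 3 chitin synthases, 12 mannoproteins, 8 genes of mother-daughter separation and 2 wall-associated proteases. All 43 were above background on every array of at least 1 strain and were tested among 5863 genes.

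The yeast wall is a network of beta-glucan fibres joined to a small amount of chitin and covered by mannoproteins. Glucan synthases spin the main chain at the plasma membrane, and secreted transglycosylases and hydrolases cut it and join it to other polymers as the cell grows. After division, chitinase and glucanases made in the daughter cell dissolve the septum that still ties it to its mother. Wall composition is known to change as growth slows, and mannoproteins such as Sed1 and Spi1 are known from slow-growing and stationary cells.

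The strains were a wild type and deletions of hsp31, hsp32 or hsp33, genes for DJ-1 family proteins, and all 4 were grown in synthetic complete medium and collected when glucose runs out, at the diauxic shift. The labels do not name the strain background or say that the 3 samples of a strain were separate cultures, so a p-value here measures the spread between samples, which may be technical. The 3 comparisons with wild type share the same 3 wild-type arrays.

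Signals are given as quantile-normalized log2 intensity, so a difference of 1 is a doubling, and levels of different probes are not set against each other. HSP31 was at least 44.5-fold lower in the hsp31 deletion than in wild type and below background there. HSP32 and HSP33, whose sequences are near-identical, stayed above background in every strain and were lower in all 3 deletions, so their probes could not check the labels of those deletions. The strains also differed outside the targeted genes. The a-cell gene STE2 was lower in the hsp33 deletion than in wild type by a log2 difference of -1.34, and the alpha-cell gene STE3 was higher by 2.41. URA3 was at least 219-fold higher in the hsp32 deletion. HIS3 differed by -1.33 in the hsp33 deletion. In the hsp31 and hsp32 deletions STE2 was higher than wild type by 0.96 and 1.31 and HIS3 by 0.96 and 1.33, and LEU2 was higher in all 3 deletions, by 1.09, 1.85 and 0.97. These differences lie between the same groups as the deletions, and their part in the wall gene results cannot be told apart from that of the deletion. Of 10 reference genes of growth state, 3 were higher and 6 lower in the hsp31 deletion, and 3 were higher and 7 lower in each of the other two. Among all genes tested 25.7%, 33.3% and 29.0% were higher and 30.4%, 36.7% and 32.4% lower in the hsp31, hsp32 and hsp33 deletions. Among the reference genes MIG2, for a repressor made in high glucose, was higher by 3.17 in the hsp32 deletion. HSP12, for a stress protein of slow growth, was lower by 3.17 there (log2 difference -3.17). GRE1 and SPG1 were lower still in that deletion, at -5.05 and -3.62. The part of growth state in the wall gene results was not tested. In bulk RNA, fewer cells in a given state and less RNA per cell cannot be told apart. Median spot brightness was 607 to 1153 over a local background of 66 to 93. On replicate 2 of the hsp32 deletion the background threshold was 284, against 35.4 to 53.6 elsewhere, and GAS2 and GAS4 fell below it. All 43 genes were above background on the other 11 arrays. Without that array 17 wall genes were higher and 13 lower in the hsp32 deletion than in wild type, in place of the 20 and 11 given next. Of all genes tested 1870 were then higher and 2049 lower, in place of 1953 and 2152.

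With quantile normalization, glucan and chitin genes were mostly higher in the deletions than in wild type. Mannoproteins were called in shares close to those of all genes, but more of them were lower with either other scaling. Separation genes had medians below 0 under every scaling tried. With quantile normalization 3, 5 and 4 of the 8 separation genes were called lower in the hsp31, hsp32 and hsp33 deletions. These are 37.5%, 62.5% and 50%, against 30.4%, 36.7% and 32.4% of all genes. In the hsp31 deletion 17 of the 43 genes were higher and 9 lower (limma, adjusted p under 0.05). That is 39.5% and 20.9% of the wall genes, where 25.7% of all genes tested were higher and 30.4% lower. The hsp32 deletion had 20 higher and 11 lower, or 46.5% and 25.6%, where 33.3% of all genes were higher and 36.7% lower. The hsp33 deletion also had 20 higher and 11 lower, against 29.0% higher and 32.4% lower among all genes. The median log2 difference of the 43 genes was 0.14 for the hsp31 deletion, 0.17 for hsp32 and 0.10 for hsp33 (the order kept wherever 3 values are given), against -0.03, -0.04 and -0.03 over all genes. These medians turned negative when arrays were scaled to their median in place of quantile normalization, at -0.07, -0.10 and -0.11, where all genes stood at -0.08, -0.10 and -0.075. With 75th percentile scaling the medians were 0.14, 0.17 and 0.12 for the wall genes and 0.12, 0.17 and 0.15 for all genes, so under both other scalings the wall genes' median was close to or below that of all genes. With median scaling 15 were higher and 16 lower in the hsp31 deletion, 17 and 16 in the hsp32 deletion, and 18 and 16 in the hsp33 deletion. Those are 34.9%, 39.5% and 41.9% higher, against 24.2%, 30.3% and 26.6% of all genes, and 37.2% lower in each, against 35.7%, 40.5% and 36.8%. With 75th percentile scaling 39.5%, 46.5% and 44.2% of the wall genes were higher, against 36.8%, 44.0% and 40.4% of all genes, and 30.2%, 34.9% and 34.9% were lower, against 23.4%, 27.8% and 25%. Within slide 1, which held 2 arrays of each, 5 wall genes were lower in the hsp31 deletion in place of 9. Of the 5863 genes tested, 1155 were lower there, in place of 1783. The median SD between arrays of a strain was 0.11 for the wall genes and 0.11 for all genes.

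**Figure D1:**
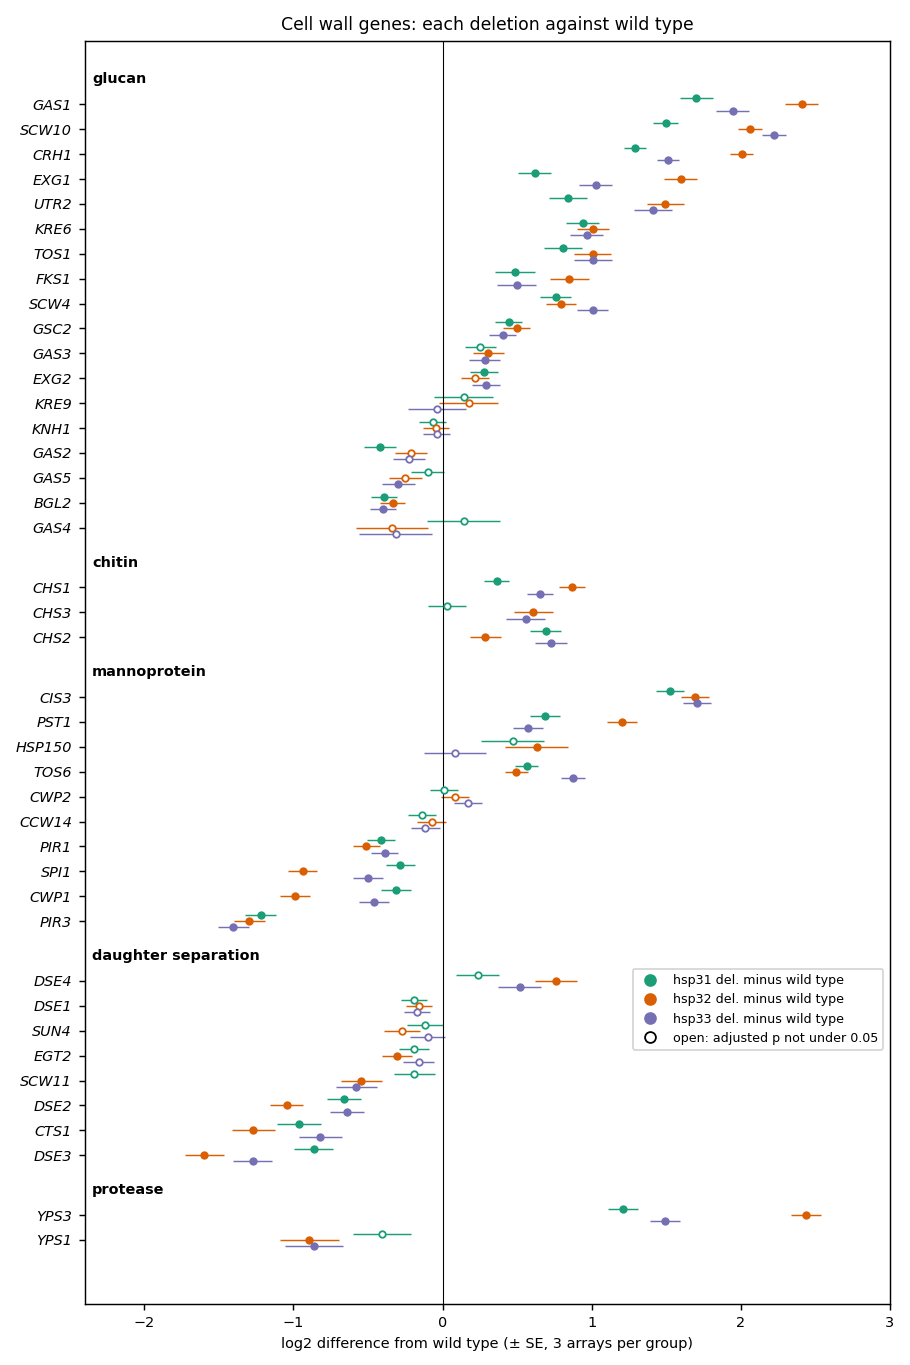
Log2 difference from wild type (horizontal axis) of 41 cell wall genes by role, for the hsp31, hsp32 and hsp33 deletions, with bars of 1 standard error; filled points passed an adjusted p of 0.05 (limma). CCW12 and SED1, saturated on all 12 arrays, are left out. Glucan and chitin genes lie mostly to the right of 0 and separation genes mostly to the left, from -1.60 for DSE3 to 2.44 for YPS3, both in the hsp32 deletion.

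Of the 18 glucan genes, 11 were higher and 2 lower in the hsp31 deletion, 11 and 1 in the hsp32 deletion, and 12 and 2 in the hsp33 deletion. That is 61.1%, 61.1% and 66.7% higher, against 25.7%, 33.3% and 29.0% of all genes. Their median log2 differences were 0.47, 0.65 and 0.45, and stayed above 0 under both other scalings tried. GAS1, for the main beta-1,3-glucanosyltransferase that lengthens glucan chains, was at 9.97, 10.08 and 9.93 on the wild-type arrays. It was at 11.70, 11.70 and 11.69 in the hsp31 deletion, 12.22, 12.68 and 12.32 in the hsp32 deletion and 11.82, 11.94 and 12.06 in the hsp33 deletion. Every deletion array was above every wild-type array, with no overlap. The log2 differences were 1.70 ± 0.11 (SE, n = 3 per group), 2.41 ± 0.11 and 1.95 ± 0.11, with limma adjusted p of 4.31e-08, 4.82e-10 and 6.89e-09.

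The other Gas-family genes moved less or not measurably. GAS3 was higher by 0.31 in the hsp32 deletion and 0.28 in the hsp33 deletion, calls that were lost without either of 2 arrays in the first case (wild type 3, hsp32 deletion 2) and any of 4 in the second (wild type 1 and 3, hsp33 deletion 1 and 3). GAS5 was lower by 0.30 in the hsp33 deletion (log2 difference -0.30), and lost that call without wild type 1 or 2 or hsp33 deletion 1 or 2. GAS2 and GAS4 are known for the spore wall. GAS2 differed by -0.42 in the hsp31 deletion, a call lost within slide 1 and with 75th percentile scaling. GAS4 was at 8.99, 7.82 and 7.68 in the hsp31 deletion against 8.04, 8.02 and 8.01 in wild type, so 1 array stood far above the rest. Without that array the log2 difference of 0.14 became -0.27 and passed the threshold (limma adjusted p = 0.0369).

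The crosslinkers that join chitin to glucan rose in each deletion. CRH1 was at 11.06, 11.07 and 11.10 in wild type, at 12.33, 12.40 and 12.37 in the hsp31 deletion, at 13.00, 13.17 and 13.08 in the hsp32 deletion and at 12.52, 12.64 and 12.61 in the hsp33 deletion. The 4 groups occupied separate ranges, in the order wild type, hsp31, hsp33 and hsp32 deletion, although the step from hsp31 to hsp33 deletion, 0.22 ± 0.08, did not pass (limma adjusted p = 0.107). CRH1 was 2.45-fold, 4.02-fold and 2.85-fold higher than wild type (limma adjusted p of 1.85e-08, 9.48e-11 and 2.37e-09). Its relative UTR2 was higher by 0.84 ± 0.13, 1.49 ± 0.13 and 1.41 ± 0.13, from wild-type levels of 7.78, 7.95 and 7.98.

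SCW10 and SCW4, for related glucanase-like wall proteins, rose to different extents. SCW10 was at 10.99, 11.13 and 11.08 in wild type and at 12.47, 12.56 and 12.65 in the hsp31 deletion. It was at 13.17, 13.14 and 13.08 in the hsp32 deletion and at 13.25, 13.38 and 13.23 in the hsp33 deletion. All 9 deletion arrays were above wild type. The rises were 1.50, 2.06 and 2.22, each ± 0.08. SCW4 was higher by 0.76, 0.79 and 1.01, each ± 0.10. The SCW4 calls in the hsp31 and hsp32 deletions were lost with median scaling, at 0.19 and 0.14.

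The exo-glucanase gene EXG1 rose in each deletion. It was at 10.68, 10.64 and 10.75 in wild type, 11.17, 11.38 and 11.37 in the hsp31 deletion, 12.19, 12.28 and 12.40 in the hsp32 deletion and 11.47, 11.84 and 11.85 in the hsp33 deletion. No group overlapped another, and EXG1 was 1.53-fold, 3.03-fold and 2.04-fold above wild type. EXG2, for a second exo-glucanase, was higher by 0.28 and 0.29 in the hsp31 and hsp33 deletions and by 0.22 in the hsp32 deletion, where it missed the threshold. Its call in the hsp31 deletion was lost within slide 1 and without wild type 1 or 2 or hsp31 deletion 1 or 2, and that in the hsp33 deletion without wild type 2 or hsp33 deletion 2. BGL2, for the major endo-type transferase of the wall, went the other way. It was at 14.16, 14.20 and 14.18 in wild type and between 13.73 and 14.00 on the 9 deletion arrays, all below wild type, with log2 differences of -0.39, -0.34 and -0.40, each ± 0.09.

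The catalytic subunits of the glucan synthase were both higher with quantile normalization. FKS1, known for vegetative growth on glucose, was higher by 0.49 ± 0.13, 0.85 ± 0.13 and 0.50 ± 0.13. GSC2 (FKS2), known for its expression when glucose is low and under stress, was higher by 0.45, 0.50 and 0.40, each ± 0.09, but with median scaling its differences were -0.11, -0.051 and -0.11 and none passed. With 75th percentile scaling the GSC2 calls in the hsp31 and hsp33 deletions were also lost. KRE6, needed for beta-1,6-glucan, was at 10.15, 10.27 and 10.28 in wild type and between 10.99 and 11.40 on the deletion arrays, a rise of 0.94, 1.01 and 0.97, each ± 0.11. TOS1, for a wall protein of the glucan group, rose by 0.81, 1.01 and 1.01, each ± 0.13. KRE9 and KNH1, related genes also needed for beta-1,6-glucan, were not called against wild type. The 95% interval of the KNH1 log2 difference was -0.26 to 0.13 in the hsp31 deletion and that of KRE9 was -0.28 to 0.56. For KRE9, replicate 2 of the hsp32 deletion stood at 11.74 against 11.01 and 10.95.

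**Figure D2:**
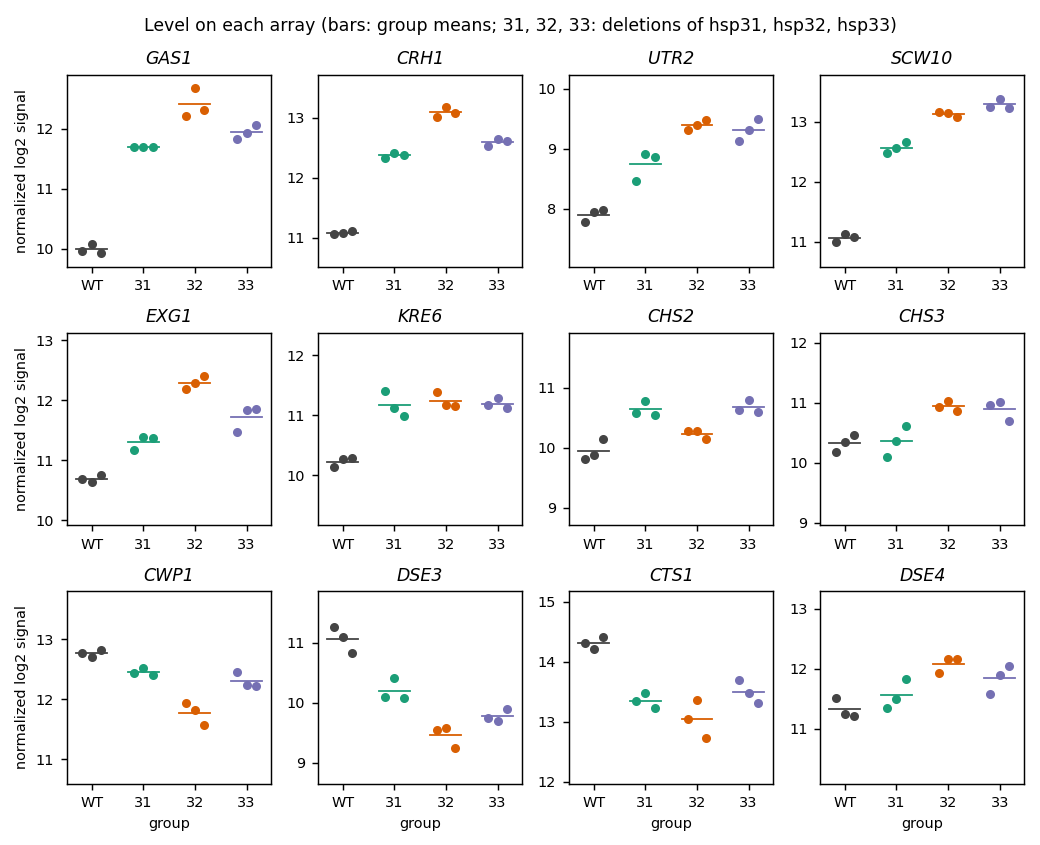
Quantile-normalized log2 signal (vertical axis, every panel 3.2 units high) on each array for 12 cell wall genes, with bars at the mean of the 3 arrays of a group; WT is wild type and 31, 32 and 33 are the hsp31, hsp32 and hsp33 deletions. GAS1, CRH1, UTR2, SCW10, EXG1 and KRE6 lie above wild type on all 9 deletion arrays, and CWP1, DSE3 and CTS1 lie below it on all 9.

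Of the 3 chitin synthase genes 2 were higher in the hsp31 deletion and all 3 in each of the other deletions. Of all genes 25.7%, 33.3% and 29.0% were higher in the hsp31, hsp32 and hsp33 deletions. With median scaling 1, 2 and 3 chitin synthase genes were higher, where 24.2%, 30.3% and 26.6% of all genes were. CHS1, for the repair enzyme that acts at cell separation, was at 11.21, 11.30 and 11.21 in wild type and rose by 0.36, 0.87 and 0.65, each ± 0.09, in the 3 deletions. The smallest of these rises was lost with median scaling, at 0.11. CHS2, for the synthase of the primary septum, was at 9.82, 9.87 and 10.15 in wild type, at 10.58, 10.78 and 10.55 in the hsp31 deletion and at 10.62, 10.80 and 10.59 in the hsp33 deletion. In the hsp32 deletion CHS2 was at 10.28, 10.28 and 10.14, which overlapped wild type. Its log2 differences were 0.69, 0.29 and 0.73, each ± 0.11. The call in the hsp32 deletion was lost with median scaling and without wild type 1 or 2 or hsp32 deletion 1 or 2. CHS3, for the synthase of most lateral-wall and bud-neck chitin, was at 10.17, 10.35 and 10.47 in wild type and at 10.09, 10.37 and 10.62 in the hsp31 deletion, which overlapped. It was at 10.93, 11.03 and 10.86 in the hsp32 deletion and at 10.96, 11.01 and 10.70 in the hsp33 deletion, all above wild type. The rises of CHS3 were 0.61 ± 0.13 and 0.56 ± 0.13 (limma adjusted p of 0.00085 and 0.00206), and in the hsp31 deletion the 95% interval ran from -0.25 to 0.31.

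Of the 12 mannoprotein genes, 3 were higher and 4 lower in the hsp31 deletion, 4 and 4 in the hsp32 deletion, and 3 and 4 in the hsp33 deletion. These are 25%, 33.3% and 25% higher and 33.3% lower in each, close to the shares of all genes, 25.7%, 33.3% and 29.0% higher and 30.4%, 36.7% and 32.4% lower. With median scaling 6 were lower in each deletion, where 35.7%, 40.5% and 36.8% of all genes were. With 75th percentile scaling 6, 5 and 6 were lower, where 23.4%, 27.8% and 25% of all genes were. The mannoprotein medians of 0.05, 0.09 and 0.08 turned negative with median scaling (-0.45, -0.35 and -0.37) and 75th percentile scaling (-0.24, -0.07 and -0.14). The list as a whole thus had no settled direction. CCW12 and SED1, for abundant wall proteins anchored through GPI, were saturated on all 12 arrays, and no fold is given for them. The counts and medians of the mannoprotein list include both of them and SPI1. SPI1, for a GPI protein of the same kind, was saturated on 2 of the 3 wild-type arrays. Its measured differences of -0.28, -0.94 and -0.50 rest on that capped wild-type level and may understate the fall. Its call in the hsp31 deletion was lost within slide 1 and without wild type 1 or 2 or hsp31 deletion 2 or 3.

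The 4 listed genes of the PIR family, whose proteins carry internal repeats and attach to glucan directly, went in different directions. CIS3 (PIR4) was at 13.02, 13.20 and 12.98 in wild type and between 14.52 and 14.87 on the deletion arrays, with no overlap and rises of 1.53, 1.69 and 1.71, each ± 0.10. PIR3 was at 13.61, 13.76 and 13.63 in wild type and between 12.18 and 12.63 on the deletion arrays, again with no overlap. PIR3 fell by 1.22, 1.30 and 1.40, each ± 0.11 (limma adjusted p of 5.04e-07, 9.28e-08 and 7.68e-08). PIR1 fell less, by 0.41, 0.51 and 0.39, each ± 0.09, and its call in the hsp31 deletion was lost within slide 1. HSP150 (PIR2) was at 12.50, 12.53 and 12.23 in wild type, 12.93, 13.01 and 12.73 in the hsp31 deletion, 12.91, 13.69 and 12.55 in the hsp32 deletion and 12.51, 12.39 and 12.61 in the hsp33 deletion. Its difference of 0.63 ± 0.21 in the hsp32 deletion passed (limma adjusted p = 0.0155), but was lost without hsp32 deletion 2, which held the highest value, without wild type 3, and with either other scaling. Sequence shared between PIR family members could spread signal among their probes, which was not tested.

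CWP1 and CWP2, for a pair of GPI wall mannoproteins, gave different results. CWP1 was at 12.77, 12.71 and 12.82 in wild type, 12.44, 12.51 and 12.41 in the hsp31 deletion, 11.95, 11.81 and 11.57 in the hsp32 deletion and 12.45, 12.25 and 12.22 in the hsp33 deletion. Each deletion array was below wild type, by -0.31, -0.99 and -0.46 on average, each ± 0.10. The call in the hsp31 deletion was lost within slide 1 and without wild type 3 or hsp31 deletion 3. CWP2 gave 95% intervals of -0.19 to 0.21, -0.11 to 0.28 and -0.03 to 0.37, but was lower by -0.67, -0.66 and -0.46 with median scaling and by -0.47, -0.38 and -0.23 with 75th percentile scaling, all past the threshold. PST1, a target of the cell integrity pathway, was at 11.36, 11.32 and 11.31 in wild type and rose by 0.69, 1.20 and 0.58, each ± 0.10. TOS6 rose by 0.56, 0.49 and 0.87, each ± 0.08. CCW14 was not called against wild type, at -0.14, -0.07 and -0.12.

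The proteases Yps1 and Yps3, yapsins that trim wall proteins at the cell surface, were coded by genes that moved apart. YPS3 was at 10.09, 10.003 and 10.19 in wild type, 11.27, 11.20 and 11.44 in the hsp31 deletion, 12.36, 12.64 and 12.58 in the hsp32 deletion and 11.45, 11.64 and 11.66 in the hsp33 deletion. It was 2.31-fold, 5.42-fold and 2.81-fold higher than wild type (limma adjusted p of 4.11e-07, 2.35e-10 and 3.23e-08). YPS1 was at 11.64, 11.56 and 11.71 in wild type and at 10.86, 11.20 and 10.17 in the hsp32 deletion, a wide spread that lay wholly below wild type. YPS1 differed by -0.41, -0.89 and -0.86, each ± 0.20, and passed in the hsp32 and hsp33 deletions.

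YPS1 and YPS3 are neighbours in the RefSeq R64 gene order, on chromosome XII. The other adjacent pairs among the 43 genes were HSP150 and CIS3 on chromosome X, and CWP2 with CWP1 and PIR1 with PIR3 on chromosome XI. PIR1 and PIR3 both fell in each deletion, YPS3 rose where YPS1 was lower, and CIS3 rose beside an HSP150 that passed in the hsp32 deletion only.

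**Figure D3:**
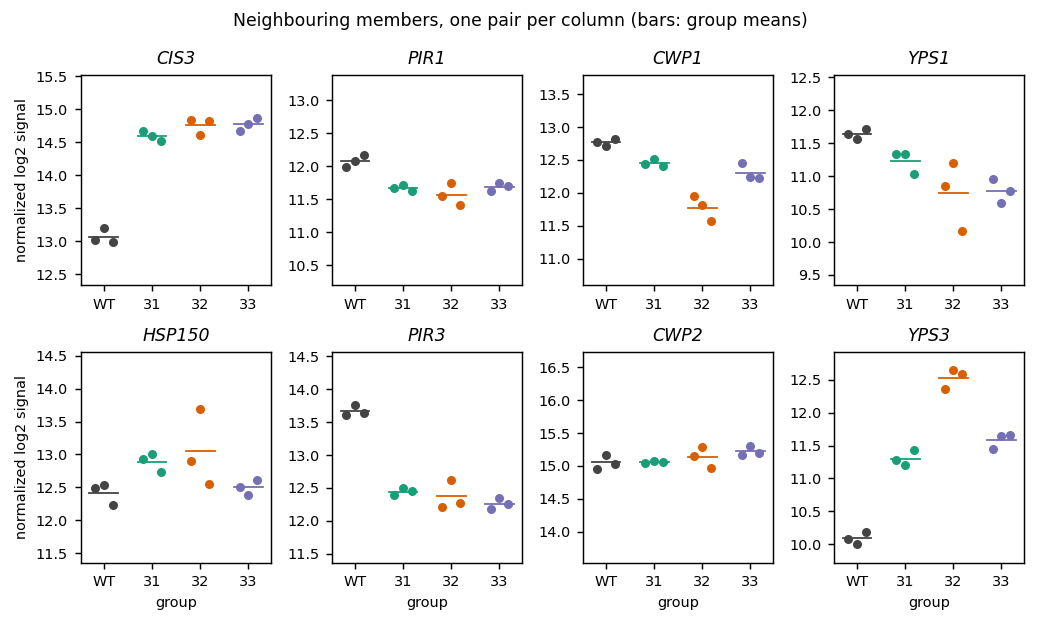
Quantile-normalized log2 signal (vertical axis, every panel 3.2 units high) on each array for the 4 pairs of adjacent cell wall genes, 1 pair per column, with bars at group means; WT is wild type and 31, 32 and 33 are the deletions. CIS3 and YPS3 lie above wild type on all 9 deletion arrays while HSP150 overlaps wild type in the hsp33 deletion and YPS1 lies below it, PIR1 and PIR3 both fall, and CWP1 falls while CWP2 stays between 14.96 and 15.31.

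Of the 8 separation genes, 3 were lower and 0 higher in the hsp31 deletion, 5 and 1 in the hsp32 deletion, and 4 and 1 in the hsp33 deletion (limma). That is 37.5%, 62.5% and 50% lower, against 30.4%, 36.7% and 32.4% of all genes, so the hsp31 share was near that of all genes. Higher were 0%, 12.5% and 12.5% of the separation genes, against 25.7%, 33.3% and 29.0% of all genes. With median scaling 6, 7 and 7 separation genes were lower, where 35.7%, 40.5% and 36.8% of all genes were. With 75th percentile scaling 5, 7 and 6 were lower, where 23.4%, 27.8% and 25% of all genes were. At an unadjusted p under 0.05 (limma) no separation gene was higher and 4 were lower in the hsp31 deletion. The share of all genes at that threshold was not counted. The medians were -0.19, -0.43 and -0.37, and stayed below 0 with both other scalings. CTS1, for the endochitinase that frees the daughter cell, was at 14.31, 14.20 and 14.42 in wild type, 13.34, 13.48 and 13.22 in the hsp31 deletion, 13.05, 13.35 and 12.72 in the hsp32 deletion and 13.69, 13.47 and 13.31 in the hsp33 deletion. All 9 deletion arrays were below wild type, while the deletions overlapped each other. CTS1 fell by 0.96, 1.27 and 0.82, each ± 0.15 (limma adjusted p of 8.61e-05, 2.81e-06 and 0.000249).

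The daughter-specific genes DSE1 to DSE4 did not move as a block. DSE3 was at 11.26, 11.09 and 10.83 in wild type, 10.10, 10.41 and 10.07 in the hsp31 deletion, 9.55, 9.58 and 9.25 in the hsp32 deletion and 9.75, 9.70 and 9.90 in the hsp33 deletion, with no overlap between any 2 groups. DSE3 fell by 0.86, 1.60 and 1.27, each ± 0.13. DSE2, for a wall protein with glucanase-like features, fell by 0.66, 1.05 and 0.64, each ± 0.11. DSE4 (ENG1), for the endo-glucanase of the septum, was the 1 separation gene that was higher. It was at 11.51, 11.25 and 11.21 in wild type, 11.94, 12.16 and 12.16 in the hsp32 deletion and 11.58, 11.89 and 12.04 in the hsp33 deletion. The differences of 0.76 ± 0.14 and 0.52 ± 0.14 passed, and the second was lost with median scaling, at 0.23. DSE1 was not called, at -0.19, -0.16 and -0.17.

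SCW11, for another daughter-side glucanase-like protein, fell by 0.54 and 0.58 in the hsp32 and hsp33 deletions, each ± 0.14, and was at -0.19 in the hsp31 deletion. EGT2, an early G1 gene for a wall protein of separation, fell by 0.31 in the hsp32 deletion, a call lost without wild type 1 or 2 or hsp32 deletion 1. SUN4 was not called, at -0.12, -0.27 and -0.10. DSE1 passed in all 3 comparisons with either other scaling, and SUN4 passed in all 3 with median scaling.

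Direct comparisons between the deletions use the wild-type arrays only through the normalization and the shared estimate of spread, and share arrays with each other. Most calls, among the wall genes as among all genes, came from the comparisons that include the hsp32 deletion. Between the hsp32 and hsp31 deletions 11 wall genes were higher and 5 lower in the hsp32 deletion. That is 25.6% and 11.6%, where 19.8% of all genes were higher and 17.8% lower. Between the hsp33 and hsp32 deletions 6 were higher and 5 lower in the hsp33 deletion. That is 14.0% and 11.6%, where 9.57% of all genes were higher and 9.14% lower. Between the hsp33 and hsp31 deletions 5 were higher and 0 lower in the hsp33 deletion (limma). That is 11.6% and 0%, where 2.87% of all genes were higher and 1.96% lower. At an unadjusted p under 0.05 (limma) the last wall gene counts were 10 and 4, a threshold at which all genes were not counted. The count of 5 fell to 1, the SCW10 call, without hsp31 deletion 1 or without hsp33 deletion 2 and in a fit of those 2 groups alone. Over all genes 68, 52 and 52 were then higher, in place of 168. The wall gene count was 2 or 3 without wild type 1, 2 or 3, hsp31 deletion 2, hsp32 deletion 1 or hsp33 deletion 3. Under these omissions 53 to 157 of all genes were higher.

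**Figure D4:**
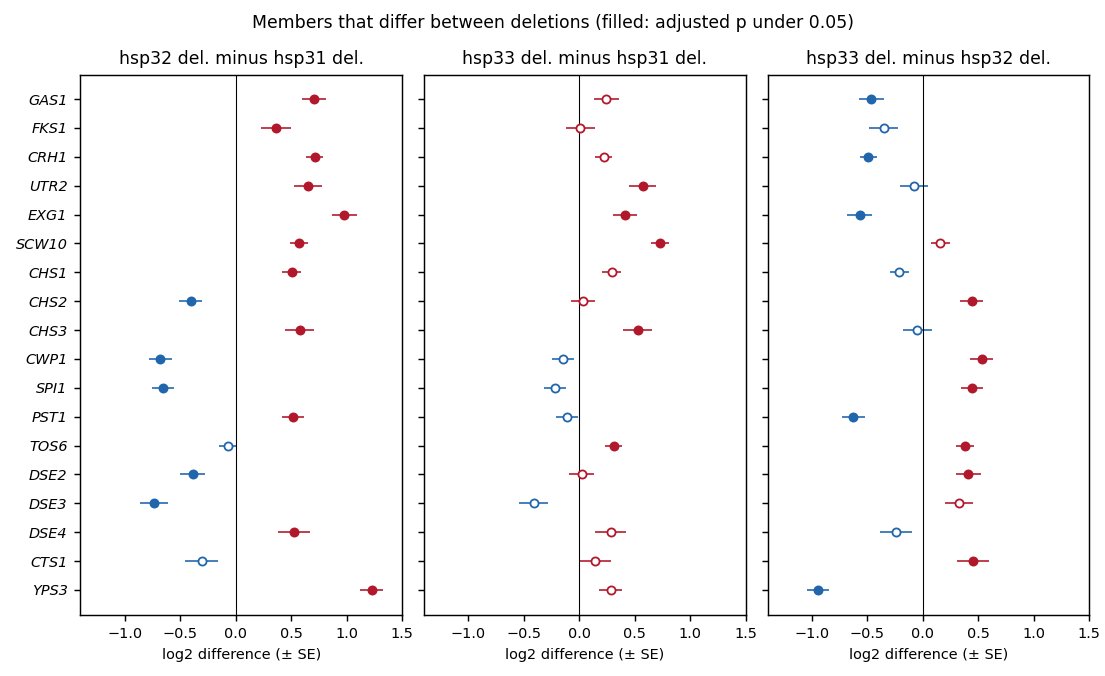
Log2 difference between deletions (horizontal axes, bars of 1 standard error, 3 arrays per group) for the 18 cell wall genes called in at least 1 of the 3 comparisons; red is higher and blue lower in the deletion named first, and filled points passed an adjusted p of 0.05 (limma). The left panel holds 16 filled points, the middle panel 5 and the right panel 11.

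GAS1, CRH1 and EXG1 were higher in the hsp32 deletion than in both other deletions. Relative to the hsp31 deletion, EXG1 was higher in the hsp32 deletion by 0.98 ± 0.11, GAS1 by 0.71 ± 0.11, CRH1 by 0.71 ± 0.08, UTR2 by 0.65 ± 0.13 and SCW10 by 0.57 ± 0.08. FKS1 was higher by 0.36 ± 0.13, with overlapping groups (limma adjusted p = 0.0433), a call lost in 12 of 22 alternatives, among them the omission of any array other than hsp31 deletion 2, hsp32 deletion 3 and hsp33 deletion 3. YPS3 had the largest difference, 1.23 ± 0.10 (limma adjusted p = 4.1e-06). Compared with the hsp32 deletion, the hsp33 deletion was lower for YPS3 by -0.94 ± 0.10, PST1 by -0.63 ± 0.10, EXG1 by -0.57 ± 0.11, CRH1 by -0.49 ± 0.08 and GAS1 by -0.46 ± 0.11, the last lost without hsp33 deletion 1. UTR2 and SCW10 were not called between these 2 strains, at -0.08 ± 0.13 and 0.16 ± 0.08. SCW10 ranges were nonetheless separate, at 13.08 to 13.17 in the hsp32 deletion and 13.23 to 13.38 in the hsp33 deletion.

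The chitin synthases ordered the deletions differently from each other. CHS2 was lower in the hsp32 deletion than in the hsp31 deletion by -0.40 ± 0.11, and higher in the hsp33 than in the hsp32 deletion by 0.44 ± 0.11, with no overlap in either case. The second call was lost without hsp33 deletion 2. CHS1 was higher in the hsp32 than in the hsp31 deletion by 0.50 ± 0.09. CHS3 was higher by 0.58 ± 0.13 in the hsp32 and by 0.53 ± 0.13 in the hsp33 deletion than in the hsp31 deletion, the second lost in 8 of 22 alternatives. These included the omission of wild type 2, hsp31 deletion 1 or 2, or hsp33 deletion 1 or 2.

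Among the genes below wild type, CWP1, SPI1 and DSE2 were lower in the hsp32 deletion than in both other deletions. CWP1 was lower there than in the hsp31 deletion by -0.68 ± 0.10, SPI1 by -0.66 ± 0.10, DSE3 by -0.73 ± 0.13 and DSE2 by -0.39 ± 0.11. The DSE2 call was lost without hsp31 deletion 2 or hsp32 deletion 3. In the hsp33 deletion CWP1 was above the hsp32 deletion by 0.53 ± 0.10, SPI1 by 0.44 ± 0.10 and DSE2 by 0.41 ± 0.11. The SPI1 and DSE2 calls were lost within slide 2. DSE2 also lost its call without hsp32 deletion 1 or 3 or hsp33 deletion 1 or 2, and with only those 2 groups in the fit. CTS1 in the hsp33 deletion was above the hsp32 deletion by 0.45 ± 0.15 (limma adjusted p = 0.045), with overlapping groups. That call was lost in 14 of 23 alternatives, including the omission of any wild-type array, hsp31 deletion 3, hsp32 deletion 1 or 3, or hsp33 deletion 1 or 2. Within slide 2, 2 wall genes were higher in the hsp33 than in the hsp32 deletion in place of 6. Of the 5863 genes tested, 417 were higher there, in place of 561. Of the 10 growth-state reference genes, 7 were lower in the hsp32 than in the hsp31 deletion and 7 higher in the hsp33 than in the hsp32 deletion. In those comparisons 17.8% of all genes were lower and 9.57% higher. The part of the reference genes in these differences was not tested.

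The hsp33 deletion was above the hsp31 deletion for SCW10 by 0.73 ± 0.08 (limma adjusted p = 0.0001), UTR2 by 0.57 ± 0.13, CHS3 by 0.53 ± 0.13, EXG1 by 0.41 ± 0.11 and TOS6 by 0.31 ± 0.08. The EXG1 call was lost in 17 of 22 alternatives, among them the omission of any array other than hsp32 deletion 3 and hsp33 deletion 1. The TOS6 call was lost in 12, among them the omission of any array other than hsp31 deletion 3, hsp32 deletion 2 or 3 and hsp33 deletion 1. UTR2 lost its call without hsp31 deletion 1 or hsp33 deletion 2 or 3. TOS6 was also above the hsp32 deletion by 0.38 ± 0.08, a call lost within slide 2. KRE6 and CIS3 showed no measurable difference between deletions: the 95% intervals for hsp32 against hsp31 deletion were -0.16 to 0.30 and -0.04 to 0.37.

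Genes of the wider wall machinery were counted in 5 further lists, beside shares of all genes of 25.7% higher and 30.4% lower in the hsp31 deletion, 33.3% and 36.7% in the hsp32 deletion, and 29.0% and 32.4% in the hsp33 deletion. Of 21 genes of the cell integrity pathway, which relays wall stress through Pkc1 to the kinase Slt2, 7 were higher and 7 lower in the hsp31 deletion, 6 and 11 in the hsp32 deletion, and 5 and 9 in the hsp33 deletion. That is 33.3% and 33.3%, 28.6% and 52.4%, and 23.8% and 42.9%. SLT2 was higher by 0.42, 1.29 and 0.70, and PKC1 lower by -0.52, -0.73 and -0.79. MSG5, for a phosphatase acting on Slt2, was higher by 1.04 in the hsp32 deletion, the sensor gene MID2 by 0.94, and ROM1, for a Rho1 exchange factor, was lower by -0.998. Of 13 chitin accessory genes, 3 were higher and 4 lower, 5 and 4, and 5 and 3. GFA1, for the first enzyme of the chitin precursor pathway, rose by 0.68, 1.11 and 0.81. CHS7, for the factor that lets Chs3 leave the endoplasmic reticulum, rose by 0.66 in the hsp32 deletion, while CHS5, for its carrier at the Golgi, was at -0.85 and SHC1, a sporulation relative of the Chs3 activator, at -1.80.

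Of 9 further genes of beta-1,6-glucan, 2 were higher and 4 lower in the hsp31 deletion, 2 and 3 in the hsp32 deletion, and 1 and 4 in the hsp33 deletion. SKN1, a relative of KRE6, was lower by -0.81, -1.35 and -0.98, opposite to KRE6. CWH41 (0.90), ROT1 (0.60) and ROT2 (-0.46) also passed in the hsp32 deletion. Of 20 mannosylation genes, 5 were higher and 3 lower, 10 and 4, and 6 and 3. The protein O-mannosyltransferase genes PMT4 and PMT2 rose by 1.36 and 1.28 in the hsp32 deletion, MNN1, for a terminal mannosyltransferase, by 1.33, and ANP1, for a subunit of a mannan polymerase, by 0.76.

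Of 23 other wall protein genes tested (YPS5 was not above background on all arrays of any group), 8 were higher and 9 lower in the hsp31 deletion, 10 and 11 in the hsp32 deletion, and 11 and 10 in the hsp33 deletion. In the hsp32 deletion ECM33, for a GPI protein of wall integrity, was higher by 2.04, and ZPS1, for a GPI protein known from zinc limitation, by 2.71. SPS100, a spore wall gene, was lower by -4.05, and FIT1, for an iron-binding mannoprotein, by -1.94. The a- and alpha-agglutinin genes AGA1 and SAG1 were highest in the hsp33 deletion, at 2.97 and 1.59 above wild type. STE2 differed from wild type in all 3 deletions and STE3 in the hsp33 deletion, and their part in these values was not tested. AGA1 and SAG1 were singled out after their values were seen.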

How the data were processed

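Total RNA of 12 samples (wild type and deletions of hsp31, hsp32 or hsp33, 3 each, grouped by title and source name) was labelled with Cy3 on 1 array each, per the labels' protocols. The deposited scanner files hold foreground and local background intensity per spot, not normalized, and a percent of saturated pixels per spot. The series values that the authors deposited are also an intensity, equal to the median foreground in 100% of spots. The scanner and the authors' own normalization, if any, are not given in the sources used here.

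Mean foreground and median local background were corrected with normexp (offset 50) over all spots, quantile-normalized over the 12504 gene spots, put on the log2 scale and averaged over the 2 spots of a probe. A probe was above background when its signal exceeded the median of 77 negative controls by 2 SD. A gene was tested where every array of some group was above background (5863 genes; 5003 were above it on all 12). A spot was saturated at 50% saturated pixels. Folds against a group below background are lower bounds. One limma fit (limma 3.58.1, R 4.3.3) of 4 group means (8 residual degrees of freedom) was used for 6 comparisons, adjusted by Benjamini-Hochberg within each at 0.05, and it was tested on simulated data.

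The 43 genes and the other lists were chosen with earlier results of these data known. All 43 could be named. Of each other list, the 4 genes with the largest difference between hsp32 deletion and wild type were named, with the targeted genes; other genes named (STE2, STE3, URA3, HIS3, LEU2, PKC1, AGA1 and SAG1) were chosen after their values were seen. The result of 1 further list is not reported here. Values of named genes in the other deletions are from the same fit. Gene order came from RefSeq R64; the files name no genome build, so no coordinates are given. Slides were inferred from scan offsets: slide 1 held hsp33 deletion 3, hsp32 deletion 1, hsp31 deletion 1 and 2, and wild type 1 and 3; slide 2 held the other 6 arrays. Replicate numbers were not taken to pair samples. Alternatives were other scalings, background settings, filters, the series values, slide or replicate number as a block, single slides, 2 groups per fit, and leaving out each array.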

Additional observations from a re-analysis of the deposited data

How the results depend on the processing

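Of 120 calls on the 43 genes over the 6 comparisons, 89 held under every alternative run and 31 did not; these 31 include the GSC2 calls, whose 3 values changed sign with median scaling. Of 3074 alternative values of the 138 results that were not called, 93 passed the threshold. The number of arrays, 3 per group, limits the precision, as does saturation of CCW12, SED1 and in part SPI1. Against wild type, the count of lower wall genes in the hsp31 deletion went from 9 to 16 with median scaling and to 5 within slide 1. Over all genes tested these counts were 1783, 2091 and 1155. The count higher in the hsp33 than in the hsp31 deletion went from 5 to 2 with median scaling and 3 with 75th percentile scaling. It was 2 with the slide as a block and 1 with only those 2 groups in the fit. Over all genes tested the count higher went from 168 to 87, 158, 85 and 52 in the same order. The count of lower wall genes went from 0 to 1 with the series values, and that of all genes from 115 to 184. The count higher in the hsp33 than in the hsp32 deletion went from 6 to 2 within slide 2, and over all genes from 561 to 417. With median scaling GSC2 was at -0.11 (hsp31 deletion), -0.051 (hsp32) and -0.11 (hsp33) and CWP2 at -0.67, -0.66 and -0.46; with 75th percentile scaling CWP2 was at -0.47, -0.38 and -0.23. GAS4 in the hsp31 deletion ranged from -0.27 (without its replicate 1) to 0.39. The cause was not tested. Among all genes, scaling to the 75th percentile moved the median difference from wild type from -0.03, -0.04 and -0.03 to 0.12, 0.17 and 0.15, and the share of calls that were higher from 45.8%, 47.6% and 47.2% to 61.1%, 61.3% and 61.8%.

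Leaving out 1 array at a time gave 16 to 18 higher and 7 to 10 lower genes for the hsp31 deletion against wild type, 17 to 21 and 10 to 13 for the hsp32 deletion, and 19 to 20 and 10 to 13 for the hsp33 deletion. For hsp32 against hsp31 deletion the ranges were 10 to 12 and 4 to 9, with 8 lower without hsp31 deletion 3 and 9 without hsp32 deletion 2. For hsp33 against hsp31 deletion they were 1 to 5 and 0 to 1, and for hsp33 against hsp32 deletion 3 to 7, with 3 without hsp33 deletion 2, and 4 to 7. With the replicate block, 257 of 258 gene results kept their call and HSP150 in the hsp31 deletion passed at 0.47 (limma adjusted p = 0.0498), which made the count higher in the hsp31 deletion 18. Deviations from the group means correlated between same-numbered arrays at 0.0352, -0.0328 and -0.0131 on average, with single values from -0.424 to 0.288. Of the 12 arrays, 8 correlated best with their own number in other groups. These values do not settle whether the number marks a pairing of samples.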
